A study of Mus musculus with 6 samples.

Results

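Interferon-stimulated antiviral effector genes were followed in BaF3 cells, a mouse line that depends on interleukin-3 (IL-3), 24 h after the cells were given a form of the Notch1 intracellular part. The genes were 51 effectors listed by symbol, and 50 of them were found among the 16799 genes held in both deposited tables. Rnf213 was not analysed here. The ICN group had been nucleofected with pmax-Clover-ICN, a plasmid for the green fluorescent protein Clover with the Notch1 intracellular part. The CTdel group had received pmax-Clover-CTdel, which the design text calls a mutated ICN, and the con group pmax-Clover alone. All groups were kept in 10% serum with 2 ng/mL mouse IL-3 and were sorted at 24 h. The sources used here do not give the plasmid dose, the marker used for sorting, what CTdel stands for or which species the ICN sequence is from. Each group had 2 libraries, numbered 1 and 2, and each number had a table of its own with all 3 groups. The labels do not say whether the 2 libraries of a group had separate cultures behind them, so a p-value here measures spread that may be technical.

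Type I interferons are secreted by cells that sense foreign nucleic acid, and they bind the receptor pair Ifnar1 and Ifnar2. The kinases Jak1 and Tyk2 then phosphorylate Stat proteins, among them Stat2, which join Irf9 and bind a DNA element called the ISRE (interferon-stimulated response element). The genes behind such elements block viruses at entry, replication, translation and release, and several of them also brake the response. Many also have a basal level without added interferon, and Irf factors can act on ISREs directly.

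Promoter sequences of the genes were examined first, because the ISRE is the element they are known for. RefSeq windows (build GRCm38.p6, from 250 bases before to 50 bases after a start site) were found for 41 of the 50 genes. The ISRE core, GAAA, any 2 bases and again GAAA, searched on both strands, was present in the windows of 17 of these 41 genes (41.5%), against 343 of 8735 tested genes with a window (3.93%). The core TTCNNNGAA of the GAS, an element of the interferon gamma response, was present in 9 of 41 (22.0%), against 8.38% of tested genes. The 2 cores can overlap. The 250 bases before the start are shown for 5 genes, 5′ to 3′ on the gene's strand, with the ISRE core or its reverse complement in capitals. Ifit3 and Isg15 were chosen for their several matches, Ifitm2 for its call below, and Rsad2 and Cmpk2 because they are neighbours on chromosome 12 with very different levels.
Ifit3, chr19:34583279-34583528, plus strand: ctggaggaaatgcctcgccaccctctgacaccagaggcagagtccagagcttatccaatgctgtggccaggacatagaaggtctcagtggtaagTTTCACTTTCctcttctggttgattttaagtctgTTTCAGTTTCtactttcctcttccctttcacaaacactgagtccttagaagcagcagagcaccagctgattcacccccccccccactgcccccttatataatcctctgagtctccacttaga
Isg15, chr4:156200819-156201068, minus strand: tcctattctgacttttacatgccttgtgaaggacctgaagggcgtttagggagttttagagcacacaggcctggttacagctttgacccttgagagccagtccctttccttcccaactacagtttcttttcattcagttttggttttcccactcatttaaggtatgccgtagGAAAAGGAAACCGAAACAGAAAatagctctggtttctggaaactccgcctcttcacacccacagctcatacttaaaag
Ifitm2, chr7:140955962-140956211, minus strand: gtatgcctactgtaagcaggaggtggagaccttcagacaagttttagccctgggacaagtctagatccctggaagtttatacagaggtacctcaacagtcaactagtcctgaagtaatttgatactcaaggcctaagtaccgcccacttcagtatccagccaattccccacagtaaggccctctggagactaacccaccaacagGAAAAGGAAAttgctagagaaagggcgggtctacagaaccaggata
Rsad2, chr12:26456453-26456702, minus strand: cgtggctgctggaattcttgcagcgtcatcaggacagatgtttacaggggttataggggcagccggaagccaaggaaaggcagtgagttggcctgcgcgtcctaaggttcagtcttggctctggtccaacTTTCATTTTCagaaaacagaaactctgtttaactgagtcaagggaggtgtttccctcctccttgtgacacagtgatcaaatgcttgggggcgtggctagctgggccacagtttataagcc
Cmpk2, chr12:26468965-26469214, plus strand: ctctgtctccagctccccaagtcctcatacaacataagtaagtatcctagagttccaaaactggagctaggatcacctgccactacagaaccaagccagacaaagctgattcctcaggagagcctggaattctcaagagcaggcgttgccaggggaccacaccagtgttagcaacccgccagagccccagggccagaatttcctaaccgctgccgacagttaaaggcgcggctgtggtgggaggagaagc
Isg15 held 3 overlapping matches, beginning 78, 72 and 66 bases before the start. The matches of Ifit3 began 156 and 122 bases before it, that of Rsad2 120 bases and that of Ifitm2 46 bases before it. The start sites used for Ifit3, Ifitm2 and Cmpk2 lay inside the RefSeq spans of these genes, so they were not the outermost starts. The window of Cmpk2 held no match to these letters. A match describes the sequence only, and no binding was measured.

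FPKM (fragments per kilobase of transcript, scaled by library size) summed to between 489693 and 507894 in each library. The number of reads is unknown, and the smallest values of short RNA genes put the depth of the other libraries at 0.960 to 1.08 of that of con replicate 1. Notch1, the gene in the plasmids, had 190.0 and 888 FPKM in ICN, 84.9 and 25.4 FPKM in CTdel and 0.89 and 1.72 FPKM in con. The 2 tables therefore paired their libraries with unequal Notch1 levels, since ICN replicate 2 held the most and CTdel replicate 2 less than replicate 1. The labelled pro-B identity was weakly carried by the RNA. The 13 of 14 pro-B markers in the tables summed to 8.66 and 7.58 FPKM in ICN, 9.45 and 18.7 in CTdel and 3.96 and 5.76 in con, mostly from Cd79b. Ebf1, Rag1 and Il7r stayed at or under 0.08 FPKM in every library, while Csf2rb, the shared signalling chain of the IL-3 receptor, had 289 and 297 FPKM in ICN, 194 and 166 FPKM in CTdel and 273 and 170.4 FPKM in con.

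Most of the effector genes were already transcribed in con cells, with 45 and 41 of the 50 at 1 FPKM or more in con replicates 1 and 2. The median level of the 50 was higher in both forms. The median FPKM of the 50 genes was 40.4 and 102 in the ICN libraries, 38.0 and 37.5 in the CTdel libraries and 25.3 and 11.4 in the con libraries. The median of all tested genes lay between 13.5 and 14.3 FPKM in every library. Together the 50 genes held 1.56% and 2.23% of the summed FPKM in ICN, 1.64% and 1.67% in CTdel and 1.03% and 0.630% in con. Ifitm1, Ifitm2 and Ifitm3 made up much of this. Without them the genes summed to 2616 and 6960 FPKM in ICN, 2400 and 2814 in CTdel and 1421 and 850 in con. ICN replicate 2 held the highest value of 42 of the 50 genes, against 27.2% of all tested genes, and con replicate 2 the lowest value of 44, against 25.0%. Genes at 100 FPKM or more numbered 9 and 25 in ICN, 11 and 12 in CTdel and 5 and 4 in con.

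**Figure D1:**
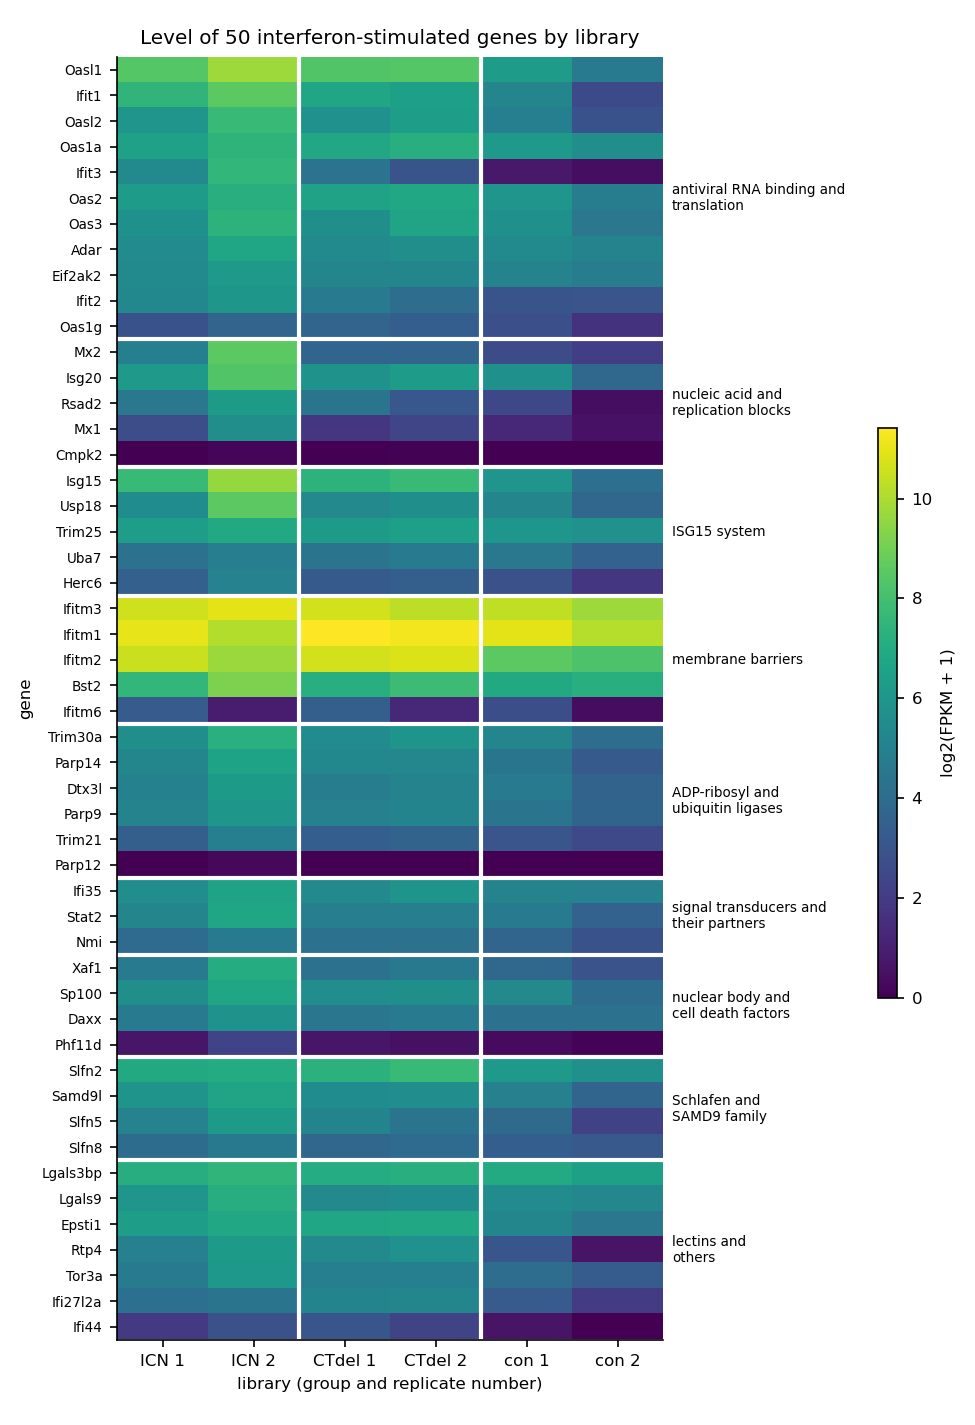
Level of the 50 genes, as log2(FPKM + 1), in each library (columns, by group and replicate number), with genes in rows by role and, within a role, by mean level in ICN. The column of ICN replicate 2 is the brightest for 42 genes and that of con replicate 2 the darkest for 44, while Ifitm1, Ifitm2 and Ifitm3 are bright in every column.

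ICN against con asked what the Notch1 part did beside Clover alone. ICN was above con within both tables for 45 of the 50 genes (90%), against 36.9% of all 16799 genes. Among the 47 genes tested, those with at least 1 FPKM in 2 or more libraries, both ICN libraries lay above both con libraries for 43, against 22.7% of the 11050 genes tested. The genes were chosen with earlier results of these data known. Such shares, here and in the comparisons below, therefore describe the genes and are not a test of them as a set. The median change of the 47 was 1.63 on the log2(FPKM + 1) scale, against 0.00136 for all tested genes, and it was 0.60 in replicate 1 and 2.59 in replicate 2. None of the 47 passed an adjusted p of 0.05 in limma, where 0.0362% of all tested genes were called higher (4 genes) and 0 lower. Notch1, the gene in the plasmid, was not called by this fit either, with a change of 7.51 ± 0.84 (adjusted p = 0.103). Nor was it called in CTdel against con (4.39 ± 0.84, adjusted p = 0.0947). At an unadjusted p under 0.05, 40 of the 47 were higher and 0 lower, against 10.0% and 5.03% of all tested genes. The lowest adjusted p of a member was 0.103, for Ifit2. The call count rested on single libraries, because leaving out replicate 1 or 2 of ICN gave 43 or 7, leaving out replicate 1 or 2 of con gave 8 or 0, and leaving out either CTdel library gave 11. The same fits called 1470 or 147, 39 or 11, and 161 or 160 of all 11050 tested genes, against 4 with every library, so the calls moved across all genes and not for the effectors alone. A group left with 1 library is then assumed to vary like the others.

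CTdel against con asked the same of the mutated form. CTdel was above con within both tables for 44 of the 50 genes, against 25.9% of all genes in both tables. Among the 47 tested genes both CTdel libraries lay above both con libraries for 41, against 18.3% of tested genes. The median change was 1.07, against -0.06 for all tested genes, with 0.53 in replicate 1 and 1.64 in replicate 2. Ifitm2 and Ifi27l2a rose in CTdel at an adjusted p under 0.05 (2 of 47, 4.26%), against 1.30% of all tested genes called higher and 0.109% called lower. At an unadjusted p under 0.05, 24 were higher and 0 lower, against 7.79% and 3.99% of all tested genes. The number of called members was 24 without either ICN library, 10 without con replicate 1, 3 without CTdel replicate 1, and 2 without CTdel replicate 2 or con replicate 2. Over all 11050 tested genes these fits called 729 and 731 (without ICN replicates 1 and 2), 122, 110, 109 and 123 genes, against 156 with every library. Without con replicate 2 the fitted change was above 0 for 33 of the 47 genes, against 47 with every library, and the median was 0.36. That fit corrects for the replicate number from ICN and CTdel alone, so its signs are not measured orderings. In replicate 1 itself CTdel was above con for 44 of the 50 genes.

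Both forms, as their mean against con, were compared to use all 6 libraries in a single contrast. Ifit2 and Ifitm2 rose (2 of 47), against 1.01% of all tested genes called higher and 0.0995% called lower, and the median change was 1.32. Without the filter on low values, which put 16799 genes into the test, no gene was called in any comparison. Called members numbered 43 or 21 when replicate 1 or 2 of ICN was left out, 11 and 12 without CTdel replicates 1 and 2, 11 without con replicate 1 and 0 without con replicate 2. All genes called in these fits numbered 1240 or 577, 189 and 249, 101 and 48, against 123 with every library. The comparisons with con share the con libraries, so they are not independent of one another. Ifit3 and Ifi44 had both con libraries under 1 FPKM and entered the test through ICN and CTdel, so a difference for them was fixed in part by the filter. Cmpk2, Parp12 and Phf11d were not tested, since fewer than 2 libraries reached 1 FPKM.

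**Figure D2:**
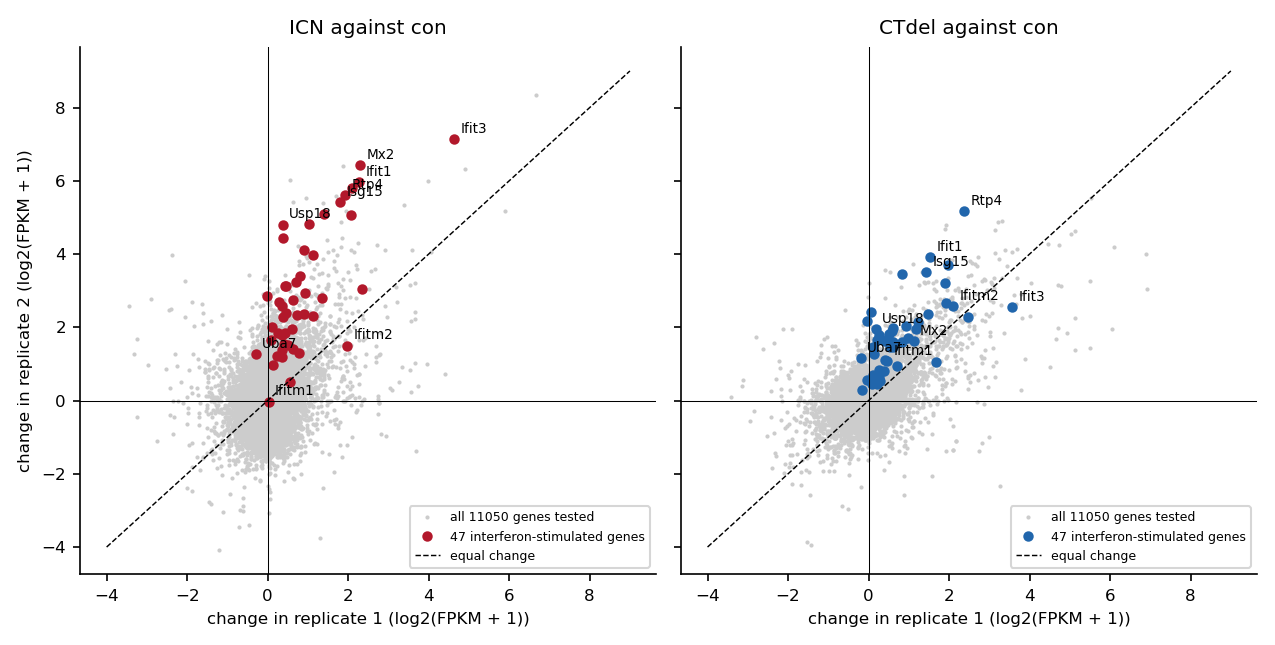
Change against con on the log2(FPKM + 1) scale in replicate 1 (horizontal axis) and replicate 2 (vertical axis), for ICN (left) and CTdel (right), with all 11050 tested genes in grey, the 47 effector genes in colour and a dashed line of equal change. For 44 of the 47 genes in each panel the change in replicate 2 exceeded that in replicate 1, against 5654 (ICN) and 5976 (CTdel) of the 11050 tested genes. Grey points centre on 0.

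Replicate libraries differed widely in these genes, and in opposite directions in ICN and con. Between the replicates of ICN, the median of the 47 genes was 1.15 higher in replicate 2 (log2), against -0.03 for all tested genes. There 44 of the 47 were higher, against 47.4% of all tested genes. Between the CTdel replicates the median was 0.15 higher in replicate 2, against 0.02 for all tested genes, with 34 genes higher, against 53.2%. Between the con replicates it was -0.87, against -0.03 for all tested genes, with 3 genes higher in replicate 2, against 46.8%. ICN replicate 2 had over 2 times the FPKM of replicate 1 for 27 of the 47 tested genes, against 5.48% of all tested genes. Con replicate 1 had over 2 times the FPKM of replicate 2 for 24 of the 47, against 8.34%. The changes against con in replicates 1 and 2 had a Pearson correlation of 0.73 over the 47 genes in ICN and 0.67 in CTdel, against 0.35 and 0.57 over all tested genes. These points share libraries, and no p is given. A change above 1 in replicate 1 was met by 14 of 47 genes in ICN (4.25% of all tested genes) and by 14 in CTdel (5.06%). In replicate 2 it was met by 44 in ICN (11.4%) and by 36 in CTdel (6.14%). The cause of the spread between replicates was not tested.

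The largest group of effectors binds foreign RNA or halts its translation, and its 11 members had a median change of 1.42 in ICN and 1.34 in CTdel. ICN was above con in both tables for 10 of them and CTdel for 9. Ifit1 recognises RNA ends that lack the methyl marks of host mRNA. Ifit1 (chr19:34640889-34650009, GRCm38.p6) had 176 and 369 FPKM in the ICN libraries, 105 and 87.7 FPKM in the CTdel libraries and 35.8 and 4.91 FPKM in the con libraries. The 3 groups did not overlap, and con replicate 2 stood far below con replicate 1. Its change was 4.12 ± 0.80 for ICN (log2, SE, adjusted p = 0.157) against 2.72 ± 0.80 for CTdel (adjusted p = 0.239), so it did not pass in either. Ifit2, a partner of Ifit1 in the same gene cluster on chromosome 19, had 39.4 and 65.5 FPKM in the ICN libraries, 24.1 and 15.8 FPKM in the CTdel libraries and 6.91 and 7.1 FPKM in the con libraries. Its con libraries lay close together, the groups did not overlap, and it rose in both forms together by 2.03 ± 0.29 (adjusted p = 0.0436). This call was lost without con replicate 1 (adjusted p = 0.0970), without con replicate 2 (0.120) or with quantile normalization (0.0646), within a range of 0.000217 to 0.229 over all alternatives. Ifit3, which stabilises Ifit1, had 41.5 and 189.6 FPKM in the ICN libraries, 19.3 and 6.93 FPKM in the CTdel libraries and 0.72 and 0.36 FPKM in the con libraries. Both con libraries were under 1 FPKM, and the ICN and CTdel libraries formed separate ranges above them. Its change was 5.88 ± 0.78 in ICN, the largest of the 47 genes (adjusted p = 0.111), and 3.05 ± 0.78 in CTdel (adjusted p = 0.175).

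Oas enzymes sense double-stranded RNA and make short adenylate chains that activate RNase L, while Oasl proteins are their relatives, and mouse Oasl1 is known to restrain translation of Irf7. Oasl1 was the most abundant of the family, with 338 and 875 FPKM in the ICN libraries, 317 and 342 FPKM in the CTdel libraries and 79.8 and 25.2 FPKM in the con libraries. Both forms lay above con without overlap, and ICN replicate 1 was close to the CTdel libraries. Its change was 3.57 ± 0.65 for ICN (adjusted p = 0.151) against 2.84 ± 0.65 for CTdel (adjusted p = 0.141). Oasl2 had 61.4 and 208 FPKM in the ICN libraries, 53.5 and 81.1 FPKM in the CTdel libraries and 29.5 and 6.45 FPKM in the con libraries, with a change of 2.92 ± 0.83 in ICN. Oas1a had 92.2 and 169.9 FPKM in ICN, 110.5 and 148 FPKM in CTdel and 72.2 and 48.5 FPKM in con, so that its ICN and CTdel ranges overlapped and both lay above con. Oas2 had 78.9 and 141 FPKM in ICN, 93.5 and 114 FPKM in CTdel and 60.8 and 28.1 FPKM in con, with the same overlap. Oas3 had 52.1 and 164 FPKM in ICN, 51.1 and 102 FPKM in CTdel and 52.6 and 21.8 FPKM in con, and in replicate 1 its 3 groups were almost level. Oas1g had 6.42 and 12.1 FPKM in ICN, 12.4 and 9.54 FPKM in CTdel and 5.86 and 2.24 FPKM in con. Changes of these 4 Oas genes lay between 1.06 and 1.42 in ICN and between 1.07 and 1.34 in CTdel, none called. Eif2ak2, the kinase PKR that stops translation initiation, had 43.6 and 71.5 FPKM in ICN, 36.05 and 36.6 FPKM in CTdel and 33.8 and 26.8 FPKM in con, and Adar, which edits adenosines in double-stranded RNA, had 45.2 and 106 FPKM in ICN, 42.02 and 49.2 FPKM in CTdel and 42.95 and 33.1 FPKM in con. For both, only ICN replicate 2 stood well apart from the other libraries, and their changes in ICN were 0.87 ± 0.29 and 0.86 ± 0.38.

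Of the roles, effectors that act on viral genomes and replication had the largest median difference between CTdel and ICN (-1.87). Their 4 tested members had a median change of 3.60 in ICN and 1.31 in CTdel. Mx2, a dynamin-like GTPase that traps viral particles in the cytoplasm of mouse cells, had 29.3 and 373 FPKM in the ICN libraries, 12.4 and 12.4 FPKM in the CTdel libraries and 5.15 and 3.34 FPKM in the con libraries. ICN replicate 2 held 12.7 times the level of ICN replicate 1, and the groups did not overlap. Its change was 4.37 ± 0.95 for ICN (adjusted p = 0.174) against 1.37 ± 0.95 for CTdel (adjusted p = 0.684). Mx1, its nuclear counterpart, had 5.52 and 49.5 FPKM in ICN, 2.55 and 4.21 FPKM in CTdel and 1.49 and 0.49 FPKM in con, again with ICN replicate 2 far above the rest. Rsad2 (viperin), which makes a chain-terminating nucleotide, had 23.1 and 75.04 FPKM in the ICN libraries, 20.4 and 7.52 FPKM in the CTdel libraries and 4.64 and 0.35 FPKM in the con libraries. Its groups did not overlap, and its change was 3.96 ± 0.84 for ICN and 2.29 ± 0.84 for CTdel (adjusted p = 0.169 and 0.369). Cmpk2, a mitochondrial nucleotide kinase encoded beside Rsad2, was at 0.12 FPKM or less in every library. Isg20, an exonuclease, had 68.5 and 318 FPKM in ICN, 54.9 and 77.5 FPKM in CTdel and 52.2 and 13.7 FPKM in con, and in replicate 1 its 3 groups were nearly level.

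**Figure D3:**
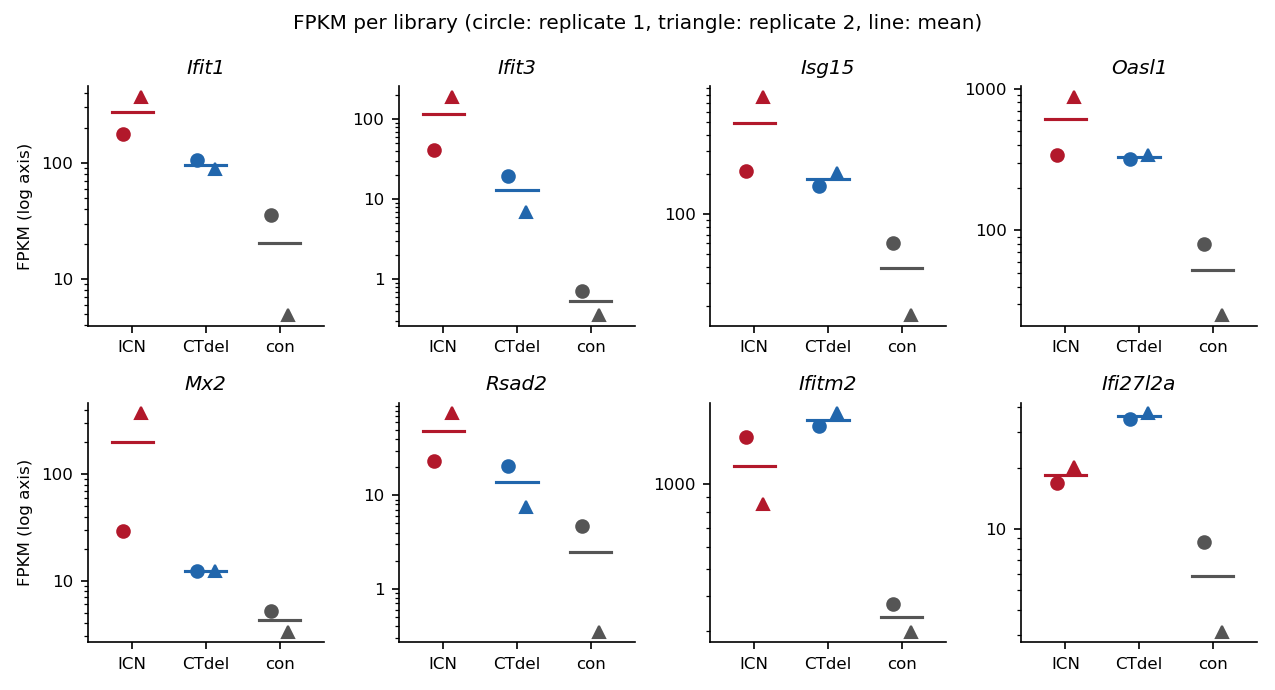
FPKM of 8 effector genes in each library on log axes that differ between panels, with ICN left, CTdel in the middle and con right, circles for replicate 1, triangles for replicate 2 and lines for group means. Mx2, Ifit3 and Isg15 are highest in ICN replicate 2, whereas Ifi27l2a and Ifitm2 are highest in CTdel.

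Isg15 is a ubiquitin-like protein, Uba7 its activating enzyme, Herc6 its ligase in mouse, and Usp18 removes it and also blocks signalling at Ifnar2. Isg15 (chr4:156199424-156200818) had 213 and 774 FPKM in the ICN libraries, 165 and 207 FPKM in the CTdel libraries and 60.6 and 17.2 FPKM in the con libraries. The groups did not overlap, since CTdel replicate 2 stayed just under ICN replicate 1. Its level was 3.51 times con in replicate 1 of ICN and 45.0 times in replicate 2, with a fitted change of 3.60 ± 0.78 (adjusted p = 0.172) against 2.47 ± 0.78 in CTdel (adjusted p = 0.274). Usp18 had 46.5 and 377 FPKM in the ICN libraries, 40.7 and 51.3 FPKM in the CTdel libraries and 35.7 and 12.6 FPKM in the con libraries, so in replicate 1 the groups differed little and in replicate 2 widely. Herc6 had 10.5 and 32.2 FPKM in ICN, 8.44 and 9.99 FPKM in CTdel and 6.09 and 2.53 FPKM in con. Uba7 had 18.5 and 28.2 FPKM in ICN, 20.1 and 26.1 FPKM in CTdel and 23.03 and 11.2 FPKM in con. ICN was thus below con for Uba7 in replicate 1 and above it in replicate 2. Its fitted change of 0.48 ± 0.40 in ICN turned to -0.25 without con replicate 2. Trim25, the ubiquitin ligase of the RNA sensor RIG-I, had 81.6 and 124 FPKM in ICN, 74.5 and 86.2 FPKM in CTdel and 63.5 and 54.1 FPKM in con, with no overlap between con and either form. None of the 5 genes of this system was called in any comparison.

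Membrane proteins that block virus entry and release included the 3 most abundant effectors, Ifitm1, Ifitm2 and Ifitm3, and their 5 members had median changes of 0.72 in ICN and 0.76 in CTdel. Ifitm proteins stiffen membranes against fusion, and 4 of them lie together on chromosome 7. Ifitm2 (chr7:140954837-140959686) had 1475 and 848 FPKM in the ICN libraries, 1610.0 and 1788 FPKM in the CTdel libraries and 375 and 299.7 FPKM in the con libraries. Both forms lay above con without overlap, and CTdel lay above ICN. It rose in CTdel by 2.34 ± 0.27 (adjusted p = 0.0261) and in both forms together by 2.04 ± 0.23 (adjusted p = 0.0314), while in ICN its change of 1.74 ± 0.27 did not pass (adjusted p = 0.120). The CTdel call was lost without CTdel replicate 2 (adjusted p = 0.121) or con replicate 1 (0.0509), within a range of 7.36e-05 to 0.198 over all alternatives. The call for both forms was lost without con replicate 1 (0.0595) or con replicate 2 (0.0707), within 0.000134 to 0.202. Ifitm1, the next gene in the cluster, had 2049 and 1106 FPKM in the ICN libraries, 2753 and 2379 FPKM in the CTdel libraries and 2008 and 1129 FPKM in the con libraries. ICN and con were level for it in both tables, and its fitted change in ICN was -0.00014 ± 0.23, against 0.76 ± 0.23 in CTdel (adjusted p = 0.262). The sign for ICN was positive with rescaling to a common sum (0.02) or quantile normalization (0.12). Ifitm3 had 1549 and 2012 FPKM in ICN, 1580.0 and 1268 FPKM in CTdel and 1308 and 872 FPKM in con, so ICN lay above con while CTdel overlapped both. Ifitm6 was low and followed the replicate number, with 8.82 and 0.85 FPKM in ICN, 9.97 and 1.48 FPKM in CTdel and 5.69 and 0.29 FPKM in con. Bst2 (tetherin), which holds budding virus on the cell surface, had 186 and 571 FPKM in ICN, 149 and 229 FPKM in CTdel and 123 and 147 FPKM in con. Its ICN libraries lay above con, and CTdel replicate 1 was near con.

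ADP-ribosyl transferases and ubiquitin ligases had changes between 1.43 and 2.11 in ICN. All 5 tested members were above con in both tables in both forms, with median changes of 1.54 in ICN and 1.03 in CTdel and none called. Parp14, an ADP-ribosyl transferase, had 36.9 and 98.3 FPKM in ICN, 39.95 and 37.7 FPKM in CTdel and 20.6 and 8.36 FPKM in con. Parp9 had 33.9 and 64.3 FPKM in ICN, 30.9 and 34.4 FPKM in CTdel and 20.1 and 11.9 FPKM in con, and its partner ligase Dtx3l had 31.6 and 74.3 FPKM in ICN, 26.6 and 33.1 FPKM in CTdel and 24.4 and 11.5 FPKM in con. The Parp9 and Dtx3l genes overlap at their ends (chr16:35938470-35972621 and chr16:35926515-35939027), and the strand setting of the counting is not given, so reads there cannot be assigned with certainty. Trim21, a cytosolic antibody receptor, had 9.98 and 29.6 FPKM in ICN, 9.56 and 11.5 FPKM in CTdel and 7.02 and 4.79 FPKM in con. Trim30a, a brake on inflammatory signalling in mouse, had 51.2 and 151 FPKM in ICN, 44.2 and 59.3 FPKM in CTdel and 36.8 and 16.4 FPKM in con. In each of these genes ICN replicate 2 was the highest library and con replicate 2 the lowest. Parp12 stayed at 0.20 FPKM or less.

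Signal transducers and nuclear factors had much the same order of libraries. Stat2, a subunit of the factor that binds the ISRE, had 35.6 and 106 FPKM in ICN, 29.04 and 28.8 FPKM in CTdel and 26.2 and 11.2 FPKM in con, with a change of 1.77 ± 0.59 in ICN (adjusted p = 0.283). Nmi, a Stat-binding protein, had 14.8 and 25.1 FPKM in ICN, 18.04 and 18.9 FPKM in CTdel and 12.2 and 6.25 FPKM in con, and its partner Ifi35 had 48.2 and 95.6 FPKM in ICN, 40.4 and 58.6 FPKM in CTdel and 33.8 and 32.6 FPKM in con. The forms lay above con for all 3, and for Nmi and Ifi35 the ICN and CTdel ranges overlapped. Sp100 and Daxx belong to nuclear bodies that silence incoming DNA. Sp100 had 50 and 105 FPKM in ICN, 47.4 and 50.2 FPKM in CTdel and 41.2 and 15.4 FPKM in con, and Daxx had 24.8 and 57.3 FPKM in ICN, 21.8 and 26.3 FPKM in CTdel and 18.5 and 19.04 FPKM in con. Xaf1, an antagonist of the death inhibitor XIAP, had 25.2 and 132 FPKM in ICN, 18.2 and 23.4 FPKM in CTdel and 13.1 and 6.7 FPKM in con, with a change of 2.50 ± 0.70 in ICN and a level 5.24 times as high in ICN replicate 2 as in ICN replicate 1. Phf11d reached 0.61 and 3.96 FPKM in ICN, 0.61 and 0.41 in CTdel and 0.26 and 0.080 in con.

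Schlafen and Samd9l genes, which restrain translation and growth, included a member that was higher in CTdel. Slfn2, which keeps mouse T cells quiescent, had 123 and 132 FPKM in the ICN libraries, 163 and 208 FPKM in the CTdel libraries and 71.3 and 52.7 FPKM in the con libraries. The 3 groups did not overlap, and its change of 1.57 ± 0.25 in CTdel missed the threshold (adjusted p = 0.0564), as did 1.04 ± 0.25 in ICN (adjusted p = 0.198). Slfn5 had 32.8 and 73.98 FPKM in ICN, 34.7 and 20.2 FPKM in CTdel and 14.3 and 3.76 FPKM in con, Slfn8 had 15.5 and 23.7 FPKM in ICN, 12.7 and 15.1 FPKM in CTdel and 9.6 and 8.22 FPKM in con and Samd9l had 59.2 and 100 FPKM in ICN, 46.2 and 47.8 FPKM in CTdel and 30.6 and 12.1 FPKM in con. For these 3 genes both forms were above con in each table, and ICN replicate 2 held the highest value.

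Ifi27l2a, Rtp4, Ifi44 and Epsti1 were among the effectors, in this role and others, for which CTdel overlapped or exceeded ICN. Ifi27l2a (chr12:103433873-103443680) had 16.9 and 20.3 FPKM in the ICN libraries, 34.99 and 37.2 FPKM in the CTdel libraries and 8.59 and 3.12 FPKM in the con libraries. CTdel was highest, ICN lay between, and no groups overlapped. It rose in CTdel by 2.56 ± 0.38 (adjusted p = 0.0465), and the change of 1.63 ± 0.38 in ICN did not pass (adjusted p = 0.190). Its call was lost without CTdel replicate 2 (adjusted p = 0.0835), with a pseudocount of 0.1 (0.0561) or with rescaling to a common sum (0.0525), within 0.000463 to 0.258 over all alternatives. Rtp4, which helps receptors reach the cell surface, had 30.2 and 73.9 FPKM in the ICN libraries, 41.6 and 54.6 FPKM in the CTdel libraries and 7.2 and 0.54 FPKM in the con libraries. Its con libraries differed by 13.3 times, and its fitted changes were 3.77 ± 0.82 for ICN and 3.78 ± 0.82 for CTdel (adjusted p = 0.173 and 0.123). Ifi44 had 2.87 and 6.17 FPKM in ICN, 7.4 and 4.05 FPKM in CTdel and 0.52 and 0.030 FPKM in con, with changes of 2.07 ± 0.43 for ICN and 2.38 ± 0.43 for CTdel (adjusted p = 0.0821). Epsti1 had 81.8 and 113 FPKM in ICN, 106 and 116 FPKM in CTdel and 37.1 and 21.8 FPKM in con, with changes of 1.72 ± 0.32 and 1.92 ± 0.32 (adjusted p = 0.0631 in CTdel). Both forms were clear of con for each of these genes. The galectin Lgals9 had 61.2 and 137 FPKM in ICN, 40.3 and 46.5 FPKM in CTdel and 45.1 and 37.6 FPKM in con, the galectin-binding glycoprotein Lgals3bp had 137 and 177 FPKM in ICN, 136 and 147 FPKM in CTdel and 125 and 90.3 FPKM in con, and Tor3a had 25.2 and 67.6 FPKM in ICN, 29.1 and 29.9 FPKM in CTdel and 15.8 and 9.14 FPKM in con. For Lgals9 CTdel overlapped con, and only ICN lay above it.

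CTdel against ICN asked whether the mutated form differed from the other. CTdel was below ICN in both tables for 31 of the 50 genes, and for 30 of the 47 tested (63.8%), against 38.3% of tested genes. It was above ICN in both tables for 6, which were Ifi27l2a, Epsti1, Slfn2, Ifitm1, Ifitm2 and Ifitm6, against 24.0% of tested genes. None of the 47 passed in limma, where 0.0181% of tested genes were called lower and 0% higher. At an unadjusted p under 0.05, 5 were lower (3.64% of all tested genes) and 1 higher (3.49%). The lower ones were Mx2 (-3.00 ± 0.95), Ifit3 (-2.83 ± 0.78), Mx1 (-2.08 ± 0.80), Ifit2 (-1.33 ± 0.33) and Lgals9 (-1.06 ± 0.35), with adjusted p between 0.568 and 0.688. The higher one was Ifitm1 (0.77 ± 0.23, adjusted p = 0.658). The size of the difference rested on replicate 2. The median difference was -0.61 in the fit, -0.13 in replicate 1 and -1.09 in replicate 2. The fit without ICN replicate 2 gave 0.15, with a fitted difference above 0 for 33 of 47 genes. That fit corrects for the replicate number from CTdel and con alone, while the median within replicate 1 was below 0. Over all tested genes the median difference was -0.07 in replicate 1 and -0.003 in replicate 2. In replicate 1 CTdel was within 1.5 times of ICN for 39 of the 50 genes, and in replicate 2 for 9. This count was not made over all genes, so it describes the effectors only. Without ICN replicate 1, 26 members were called, 24 lower and 2 higher in CTdel, among 891 of all 11050 tested genes, against 0 members and 2 genes with every library. Notch1 itself had lower FPKM in CTdel than in ICN in both tables, by most in replicate 2, and its part in this difference was not tested. The fitted difference of Notch1 was not called (-3.11 ± 0.84, adjusted p = 0.604). How the CTdel sequence differs is not given, so its FPKM may not compare the forms like for like.

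**Figure D4:**
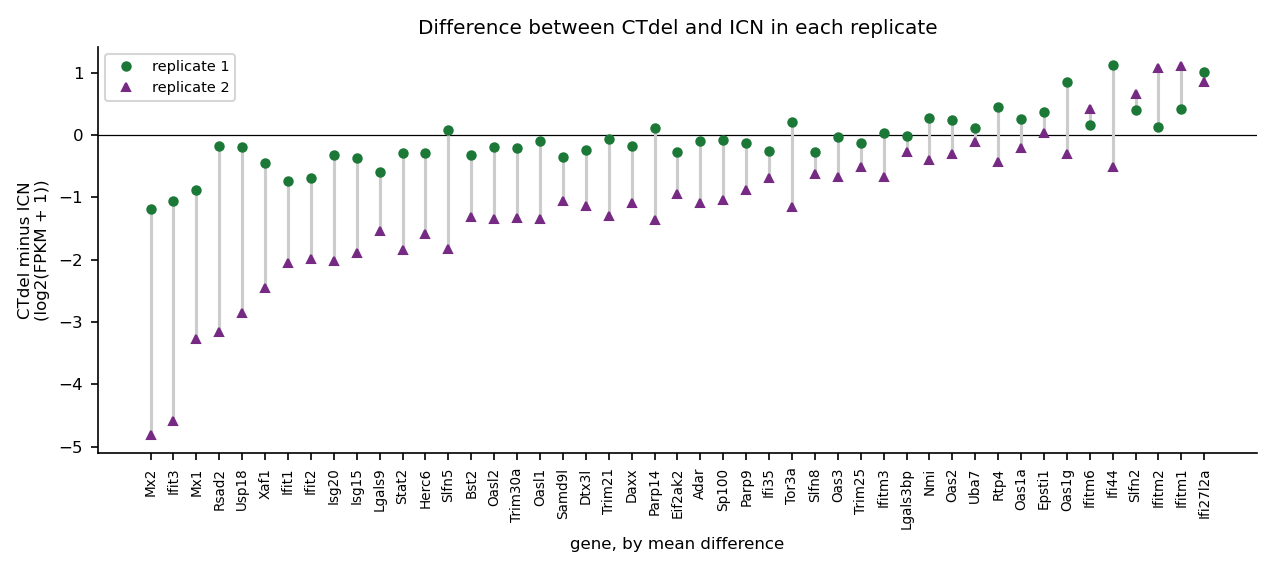
CTdel minus ICN on the log2(FPKM + 1) scale for the 47 tested genes, ordered by mean difference, with circles for replicate 1, triangles for replicate 2 and a grey line joining them. Circles stay near 0 for most genes while triangles reach -4.81 (Mx2), and 6 genes lie above 0 in both replicates.

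The rest of the interferon pathway was examined from 7 lists. Of 21 interferon ligand genes, 15 were in the tables, and none reached the level needed for a test. Ifnb1 had 1.55 and 0.51 FPKM in ICN, 0.64 and 0.070 FPKM in CTdel and 0 and 0 FPKM in con, with a listed 0 in each con library and values above 0 in the 4 others. Ifna4 had 0.63 and 0.78 FPKM in ICN, 0.41 and 0.11 FPKM in CTdel and 0 and 0.080 FPKM in con. Summed over the listed ligands, the libraries held 4.34 and 5.63 FPKM in ICN, 2.51 and 0.73 FPKM in CTdel and 0.87 and 0.68 FPKM in con. The highest single value was 1.64 FPKM, for Ifnz. Of 6 receptor genes 5 were tested and none was called in any comparison. Ifnar1 had 11.8 and 14.2 FPKM in ICN, 9.97 and 10.3 FPKM in CTdel and 11.2 and 8.39 FPKM in con, and Ifnar2 had 33.1 and 44.5 FPKM in ICN, 33.8 and 32.2 FPKM in CTdel and 37.9 and 21.9 FPKM in con, with ICN and con overlapping for Ifnar2.

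Signalling and regulatory genes of the pathway included few calls. Of 11 signalling genes, Jak2, the kinase of the IL-3 and interferon gamma receptors, rose in CTdel by 2.01 (adjusted p = 0.0265) and in both forms together by 1.59 (adjusted p = 0.0359). It had 48.9 and 34.1 FPKM in ICN, 70.3 and 77.3 FPKM in CTdel and 20.3 and 15.2 FPKM in con. The CTdel call was lost without CTdel replicate 2 (adjusted p = 0.137), con replicate 1 (0.0532) or con replicate 2 (0.0639), within 0.000353 to 0.139 over all alternatives. The call in both forms was lost without con replicate 1 (0.0739) or con replicate 2 (0.119), within 0.00129 to 0.175. Irf9, the DNA-binding subunit of the ISRE factor, had 39.1 and 127 FPKM in ICN, 50.04 and 66.7 FPKM in CTdel and 32.6 and 22.1 FPKM in con and was not called, with ICN replicate 2 highest. Socs1, an inhibitor of Jak kinases, had 9.92 and 8.2 FPKM in ICN, 8.6 and 6.32 FPKM in CTdel and 16.7 and 16.1 FPKM in con, lower in both forms but not called (adjusted p = 0.0970 in CTdel). Of 5 tested Irf genes none was called. Irf7, which amplifies type I interferon genes, had 254 and 455 FPKM in ICN, 367 and 402 FPKM in CTdel and 147 and 34.4 FPKM in con, a change of 2.24 in ICN (adjusted p = 0.246). Irf3 had 15.7 and 18.96 FPKM in ICN, 15.7 and 22.1 FPKM in CTdel and 25.3 and 28.3 FPKM in con, lower in both forms than in con.

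Among 15 tested genes of nucleic acid sensing, 2 rose in CTdel and 1 in both forms together. Samhd1, which depletes nucleotides that viruses need, had 193 and 189 FPKM in ICN, 267 and 489 FPKM in CTdel and 44.2 and 35.2 FPKM in con and rose by 3.17 in CTdel (adjusted p = 0.0203) and by 2.71 in both forms together (adjusted p = 0.0272). The call in CTdel held without each library in turn, and that in both forms was lost without con replicate 2 (0.0567, within 0.000245 to 0.166 over all alternatives). Ikbke, a kinase upstream of Irf factors, had 10.3 and 10.7 FPKM in ICN, 27.4 and 15.3 FPKM in CTdel and 5.85 and 3.52 FPKM in con and rose by 1.95 in CTdel (adjusted p = 0.0364), a call lost without CTdel replicate 1 (0.174), con replicate 1 (0.0672) or con replicate 2 (0.0956), within 0.000377 to 0.209 over all alternatives. Ifih1, the RNA sensor MDA5, had 20.2 and 28.01 FPKM in ICN, 22.9 and 24.8 FPKM in CTdel and 6.53 and 1.69 FPKM in con, which did not pass (adjusted p = 0.0940 in CTdel). Of 16 tested interferon-inducible GTPases, Gbp5 was called in both forms together (3.08, adjusted p = 0.0406), with 14.8 and 22.99 FPKM in ICN, 19.7 and 9.91 FPKM in CTdel and 2.36 and 0.22 FPKM in con, and this call was lost without con replicate 2 (0.102), with a pseudocount of 0.1 (0.0598) or with quantile normalization (0.05001), within 2.89e-05 to 0.246. Of 3 tested chemokines Cxcl10 was called there (4.78, adjusted p = 0.0336), with 106 and 139 FPKM in ICN, 95.9 and 14.3 FPKM in CTdel and 2.55 and 0.76 FPKM in con, and its call was lost without con replicate 1 (0.0664) or con replicate 2 (0.0777), within 2.21e-05 to 0.215. Ccl5, the most abundant of them, had 725 and 1608 FPKM in ICN, 756 and 528 FPKM in CTdel and 198 and 18.1 FPKM in con and did not pass. Within these lists none was called in ICN against con, where 4 genes in all passed.

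**Figure D5:**
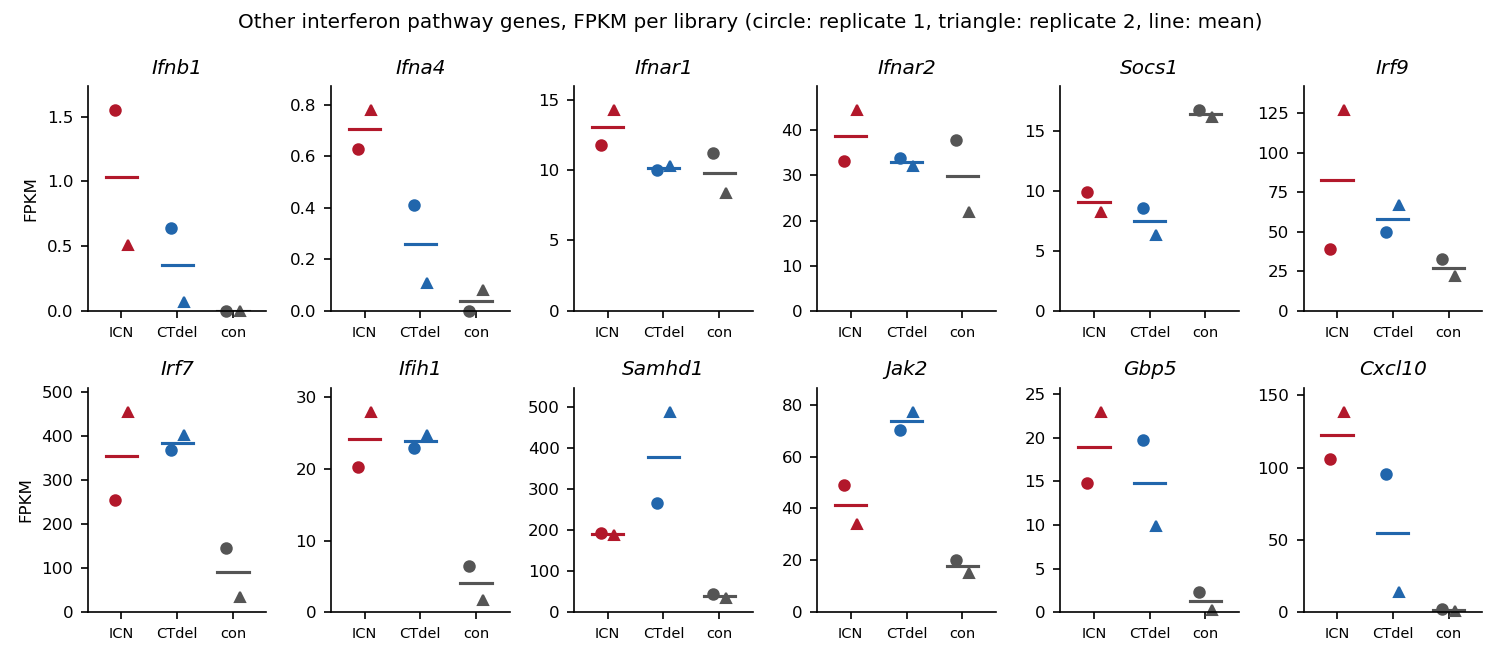
FPKM of 12 other genes of the pathway in each library on axes that start at 0 and differ between panels, with ICN left, CTdel in the middle and con right, circles for replicate 1, triangles for replicate 2 and lines for group means. Ifnb1 is at 0 in both con libraries and at most 1.55 FPKM elsewhere, Ifnar2 spreads from 21.9 to 37.9 FPKM between the con libraries, and Samhd1 and Jak2 are highest in CTdel.

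Effector genes with and without an ISRE core in their window had median changes that lay close together. The 17 tested genes with a match had a median change of 1.43 in ICN and the 21 without had 1.48, whereas over all tested genes with a window the medians were 0.14 with a match and -0.01 without. In CTdel the medians of the effectors were 1.07 with a match and 0.99 without, and over all tested genes 0.06 and -0.07. Ifit3, with matches, had the largest change in ICN, but both its con libraries were under 1 FPKM, so the filter fixed this in part. Ifitm2, with a match, was called in CTdel, and so was Ifi27l2a, for which no match was found. Ifit2, without an ISRE match in its window, was called in both forms together, as was Ifitm2.

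Markers of T cells, natural killer cells, fibroblasts and endothelium were mostly low. Macrophage and erythroid markers were present, up to 61.8 and 578 FPKM, and some markers differed between libraries. T cell markers (6 of 7 in the tables) stayed at or under 0.97 FPKM and summed to 1.88 and 1.72 in ICN, 1.5 and 1.53 in CTdel and 2.46 and 1.0 in con. Natural killer markers (4 of 6) stayed at or under 0.18 FPKM. Of 7 fibroblast and endothelial markers Pecam1, which blood cells also express, was the only one above 0.74 FPKM. Siglech, a defining marker of plasmacytoid dendritic cells, which are strong interferon producers, stayed at or under 0.13 FPKM, but other markers of that list were expressed. Of its 7 markers 2 were tested, and the highest single value was 20.3 FPKM. The list summed to 9.94 and 15.0 in ICN, 10.2 and 8.74 in CTdel and 26.3 and 5.31 in con. Macrophage markers, 10 in all, summed to 82.2 and 34.3 FPKM in ICN, 86.2 and 68.2 in CTdel and 103 and 49.7 in con, and Adgre1 was present throughout at 21.5 to 61.8 FPKM. Of the 10 macrophage markers 6 were tested, while Cd14, Mrc1 and Marco were at or under 0.16 FPKM. Csf1r, the receptor of a macrophage growth factor, had 3.34 and 0.10 FPKM in ICN, 7.96 and 1.72 FPKM in CTdel and 0.050 and 0.010 FPKM in con, so both forms lay above con and replicate 1 above replicate 2. Erythroid markers (5 genes) differed between tables, with summed levels of 171 and 389.6 FPKM in ICN, 96.7 and 229.9 in CTdel and 145 and 649.9 in con. Of the progenitor markers, Gata2 fell by 1.64 in CTdel (adjusted p = 0.0261), with 104 and 78.03 FPKM in ICN, 74.7 and 61.8 FPKM in CTdel and 238 and 192 FPKM in con, a call lost without either CTdel library (0.230 and 0.177) or either con library (0.0602 and 0.0620), within 0.000528 to 0.230 over all alternatives. The part of these markers in the changes of the effectors was not tested. In bulk RNA fewer cells of a type and less RNA per cell cannot be told apart.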

How the data were processed

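Polyadenylated-RNA libraries of 6 BaF3 samples, 2 per group, were made with an MGIEasy kit according to the labels' protocols. HISAT2, RSEM and Bowtie2 appear in the submitters' processing notes beside the builds mm10 and hg19, with no version or role. Per the file headers, the authors deposited FPKM per gene, with 1 table for each number. No read counts are given, so depth is known only as a ratio, and no counting interval was computed. FPKM from estimated assignments can be shared between near-identical genes, such as the Oas1, Ifit3 and Ifitm copies.

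The test was limma 3.58.1 (R 4.3.3) on log2(FPKM + 1), 2-sided, with an intensity trend, the 3 groups and the table (replicate block) as terms, over all 6 libraries and 11050 genes that reached 1 FPKM in 2 or more libraries. Residual degrees of freedom were 2, and the median prior added 3.82. Benjamini-Hochberg adjustment ran over all tested genes, at 0.05. Fold changes on this scale understate those of low genes. The fit was tested on simulated data. Of the deposited symbols, 26 had become dates and were restored by gene ID. Coordinates, names and promoters came from RefSeq for GRCm38.p6, the assembly behind mm10.

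The members and lists were chosen with earlier results of these data known, and pathway lists are general lists. Values are given for called members and, per role, for up to 4 with the smallest p. Other members with values, such as Ifitm1, Uba7, Lgals9, Oas1a, Oas1g, Oas2, Oas3 and Oasl2, were picked with their values in view. Some listed genes are not reported here. Alternatives covered the table term, pseudocount, filter, scaling, trend, groups fitted and each library left out.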

Additional observations from a re-analysis of the deposited data

How the results depend on the processing

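The median change of the 47 tested genes was 1.53 to 1.74 for ICN over the alternatives that kept all libraries, 1.04 to 1.20 for CTdel, -0.63 to -0.60 for CTdel minus ICN and 1.31 to 1.41 for both forms, and leaving out 1 library gave 0.82 to 2.37, 0.36 to 1.97, -1.34 to 0.15 and 0.54 to 2.16. The fitted difference of 0.15, without ICN replicate 2, was the one reversal among these medians, while the median difference within replicate 1 was -0.13. Single effectors turned more often. Without con replicate 2, the fitted change in CTdel was below 0 for 14 of the 47 genes. Among them were Usp18 (-0.48), Lgals9 (-0.39), Isg20 (-0.36), Adar (-0.28) and Stat2 (-0.24). For both forms it was below 0 for 2 genes (Oas3 and Uba7). That fit takes its replicate block from ICN and CTdel alone, so these signs are not measured orderings. In replicate 1 itself CTdel was above con for 44 of the 50 genes. With no filter on low values, 0 genes and 0 effectors were called in each comparison by limma, where 2328, 1592, 1386 and 2098 genes (ICN, CTdel, CTdel minus ICN, both forms) still had an unadjusted p under 0.05. That alternative tests more genes and adds low ones to the shared spread. Fitting the compared groups alone called 162 genes and 11 effectors for ICN and 730 genes and 24 effectors for CTdel, against 4 and 0, and 156 and 2, with all 6 libraries. It was not run for both forms, which already use every group. Called effectors in CTdel numbered 1 with a pseudocount of 0.1 and 1 with rescaling to a common sum, among 160 and 140 genes, and those in both forms 1 with quantile normalization, among 89 genes against 123. The 2 genes called for CTdel minus ICN became 0 with a pseudocount of 0.1. Leaving out 1 library gave 11 to 1470 genes and 0 to 43 effectors for ICN, 109 to 731 and 2 to 24 for CTdel, 2 to 891 and 0 to 26 for CTdel minus ICN, and 48 to 1240 and 0 to 43 for both forms. A group left with 1 library is then assumed to vary like the others, and the cause of these shifts was not tested. For ICN, the change of Ifitm1 was 0.0182 with a common sum, 0.12 with quantile normalization, and from -0.18 to 0.18 with 1 library left out, and that of Uba7 was -0.25 without con replicate 2.

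The fit without the replicate block called 5 effectors in CTdel and 8 in both forms, against 2 and 2 with it, and 130 and 132 of all tested genes, against 156 and 123. Libraries with the same number share a table, and with 2 numbers their pairing cannot be settled, since the deviations of ICN and con from their group means had a correlation of -0.10 over genes, those of CTdel and con 0.33 and those of CTdel and ICN 0.24. Read totals are unknown, so no counting error can be set beside the low values.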

Other observations

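Genes close in sequence to the effectors, chosen after their values were seen, had the same order of libraries in some families and not in others. Ifit3b, a neighbouring copy of Ifit3, had 10.8 and 42.04 FPKM in ICN, 4.94 and 1.16 FPKM in CTdel and 0.13 and 0.060 FPKM in con. Ifit1bl1 had 3.74 and 13.5 FPKM in ICN, 2.73 and 4.18 FPKM in CTdel and 0.50 and 0.040 FPKM in con and Ifit1bl2 had 2.23 and 14.2 FPKM in ICN, 0.78 and 0.68 FPKM in CTdel and 0.39 and 0.15 FPKM in con. Of the Phf11 family, whose member Phf11d was low, Phf11b had 11.4 and 30.5 FPKM in ICN, 11.9 and 15.6 FPKM in CTdel and 7.93 and 2.75 FPKM in con. Trim30d had 7.34 and 31.8 FPKM in ICN, 5.62 and 9.16 FPKM in CTdel and 1.93 and 0.97 FPKM in con. Of the Oas1 copies, Oas1b had 15.8 and 88.2 FPKM in ICN, 12.1 and 14.6 FPKM in CTdel and 15.3 and 8.29 FPKM in con and Oas1c had 7.73 and 17.6 FPKM in ICN, 6.94 and 8.69 FPKM in CTdel and 6.34 and 4.18 FPKM in con. These genes had their highest value in ICN replicate 2.

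In other copies con was not the lowest group or ICN not the highest. Slfn1 had 0.26 and 0.35 FPKM in ICN, 0.20 and 0.24 FPKM in CTdel and 0.37 and 0.19 FPKM in con, and Slfn10-ps had 16.9 and 25.3 FPKM in ICN, 10.7 and 14.5 FPKM in CTdel and 19.7 and 18.02 FPKM in con. Ifitm7 had 0.80 and 1.43 FPKM in ICN, 0.90 and 1.56 FPKM in CTdel and 2.03 and 1.24 FPKM in con. Ifitm5, like Ifitm1 and Ifitm2, was highest in CTdel, with 2.33 and 1.54 FPKM in ICN, 6.62 and 4.05 FPKM in CTdel and 0.45 and 0.42 FPKM in con. How reads were shared between such copies was not tested.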
